A study of Rattus norvegicus with 56 samples.

Results

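The glucocorticoid receptor gene Nr3c1 and 7 of its known target genes, Fkbp5, Sgk1, Tsc22d3, Zbtb16, Pdk4, Hif3a and Cdkn1a, were followed in the hippocampus and the parietal cortex of stimulated and sham rats. They were found by matching the accession of each array probe to a RefSeq gene symbol, with no use of the measured signal, and made up 8 of the 16581 genes that could be named on the array. All 8 had a probe. Nr3c1 (NM_012576) had 3 probes, Cdkn1a (NM_080782) had 2, and Fkbp5 (NM_001012174), Sgk1 (NM_019232), Tsc22d3 (NM_031345), Zbtb16 (NM_001013181), Pdk4 (NM_053551) and Hif3a (NM_022528) had 1 each. A gene with several probes is represented by its brightest probe unless stated otherwise.

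The animals were male Long-Evans rats given either intermittent theta burst stimulation (iTBS), in which short bursts of magnetic pulses reach the brain from a coil over the head, or a sham procedure with the coil held away from the head. Tissue was taken 48 h later. The 24 rats comprised 4 young sham (Y_Sham), 4 young stimulated (Y_iTBS), 4 aged unimpaired sham (AU_Sham), 5 aged unimpaired stimulated (AU_iTBS), 4 aged impaired sham (AI_Sham) and 3 aged impaired stimulated (AI_iTBS) animals, where impairment, per the labels, was judged in a water maze. The methods of the study describe the maze for another of its experiments and give fewer aged rats for this one than the labels do, and the rats are counted here as the labels give them. Ages were 6 to 7 months in the young groups and 26 to 27 months in the aged ones. All of them, sham rats included, had isoflurane, an injection of the sedative dexmedetomidine (0.035 mg per kg in young and 0.03 mg per kg in aged rats) and the reversing agent Antisedan, so no group was free of handling and anesthesia, and the dose went with age.

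The glucocorticoid receptor is a transcription factor that is held in the cytoplasm by a chaperone complex until it binds corticosterone, the main glucocorticoid of the rat. It then enters the nucleus, binds DNA and turns target genes on or off. The hippocampus is known for carrying both this receptor and the mineralocorticoid receptor, which binds the same hormone more tightly. Fkbp5 encodes a co-chaperone that lowers the receptor's affinity for hormone, and so closes a feedback loop. Sgk1 encodes a kinase acting on ion channels and transporters, Tsc22d3 the anti-inflammatory leucine zipper protein GILZ, Zbtb16 a zinc finger repressor (PLZF), Pdk4 a kinase that restrains pyruvate dehydrogenase, Hif3a a member of the hypoxia-inducible factor family and Cdkn1a the cell cycle inhibitor p21, which is also a target of p53.

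Each sample was 1 array read in 1 color. The signal is given on a log2 scale on which 0 is the mean of an array, so a difference of 1 is a doubling. On average 65.2% of probes (61.7% to 67.6% over arrays) were well above background in hippocampus and 64.3% (60.7% to 69.7%) in cortex. The scan day of a sample's first array put it into 1 of 2 scan sessions, the first scan day or any later day. Repeat arrays were not used for this. Both regions of 15 rats fell in the first session and those of 9 rats in the later one. The first arrays lay on 7 slides, of which 5 held 1 region only. Markers fit the region labels, with 5 of 7 hippocampus markers called higher in hippocampus and 6 of 7 cortex markers called higher in cortex, where called means a limma adjusted p under 0.05 over all probes tested. In bulk tissue, fewer cells of a type and less RNA per cell cannot be told apart. Signals of different probes are not set against each other, since probes differ in brightness.

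Sequence just upstream of the 3 genes that differed most clearly between the regions, Fkbp5, Sgk1 and Cdkn1a, is shown here so that the windows searched for a receptor site can be read. RefSeq (assembly GRCr8) gave promoters, each from 250 bases before to 50 after a start, for 7 of the 8 genes, 13 promoters in all, and none was held for Zbtb16. The full receptor site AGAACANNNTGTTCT was in 0 of the 13 and in 0.0149% of all 33469 rat promoters, and its left arm AGAACA alone was in 0 of the 13 and in 20.7% of all. A TATA box (TATAAA) was in 3 of the 13 (14.2% of all) and a CCAAT box in 4 of the 13 (37.5% of all), both strands searched. A match or its absence describes the letters of these windows only. Capitals mark TATAAA or CCAAT.
Fkbp5, chr20:6543506-6543805, minus strand: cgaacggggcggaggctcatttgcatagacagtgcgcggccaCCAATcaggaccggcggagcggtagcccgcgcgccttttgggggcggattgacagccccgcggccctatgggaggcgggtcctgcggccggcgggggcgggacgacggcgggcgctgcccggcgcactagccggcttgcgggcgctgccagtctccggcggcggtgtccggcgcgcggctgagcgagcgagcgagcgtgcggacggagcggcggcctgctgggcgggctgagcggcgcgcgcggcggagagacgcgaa
Sgk1, chr1:24804782-24805081, minus strand, 1 of 3 starts: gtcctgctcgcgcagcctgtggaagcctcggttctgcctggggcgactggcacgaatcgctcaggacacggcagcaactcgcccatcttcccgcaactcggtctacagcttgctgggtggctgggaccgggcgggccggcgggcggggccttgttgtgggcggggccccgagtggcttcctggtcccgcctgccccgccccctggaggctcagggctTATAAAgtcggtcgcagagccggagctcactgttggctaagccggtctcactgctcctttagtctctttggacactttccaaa
Cdkn1a, chr20:7150682-7150981, plus strand: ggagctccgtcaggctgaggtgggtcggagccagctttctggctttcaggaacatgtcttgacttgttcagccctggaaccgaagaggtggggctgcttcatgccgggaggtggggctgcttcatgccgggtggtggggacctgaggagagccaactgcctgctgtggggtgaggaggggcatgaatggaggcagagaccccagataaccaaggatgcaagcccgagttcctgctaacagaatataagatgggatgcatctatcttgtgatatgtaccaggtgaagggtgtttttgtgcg
The Fkbp5 stretch has a CCAAT box at position -208 from the start and is 77.0% G and C. The Sgk1 stretch was picked from its 3 starts for having a TATA box, at position -33, and is 66.0% G and C. Another Sgk1 start has a TATA box at position -55. The Cdkn1a stretch has neither box and is 56.7% G and C.

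The brightest probe of the receptor gene lay in a narrow band. By that probe Nr3c1 was well above background in all 24 rats in both regions, and its log2 signal ran from 4.91 to 5.52 in hippocampus (median 5.33) and from 4.77 to 5.50 in cortex (median 5.14). Group means ran from 5.23 ± 0.23 (SD, n = 4) in AU_Sham to 5.41 ± 0.09 (n = 4) in Y_Sham in hippocampus, and from 5.07 ± 0.08 (n = 4) in Y_iTBS to 5.27 ± 0.20 (n = 4) in AI_Sham in cortex. The ranges of all neighboring groups in that order overlapped. Its SD over rats, 0.12 in hippocampus and 0.17 in cortex, sat beside 0.41 and 0.42 for Tsc22d3. The other Nr3c1 probes, dimmer but well above background in all rats, ran from 2.52 to 3.40 and from -1.40 to -0.25 in hippocampus and from 2.36 to 3.22 and from -1.26 to -0.28 in cortex.

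**Figure D1:**
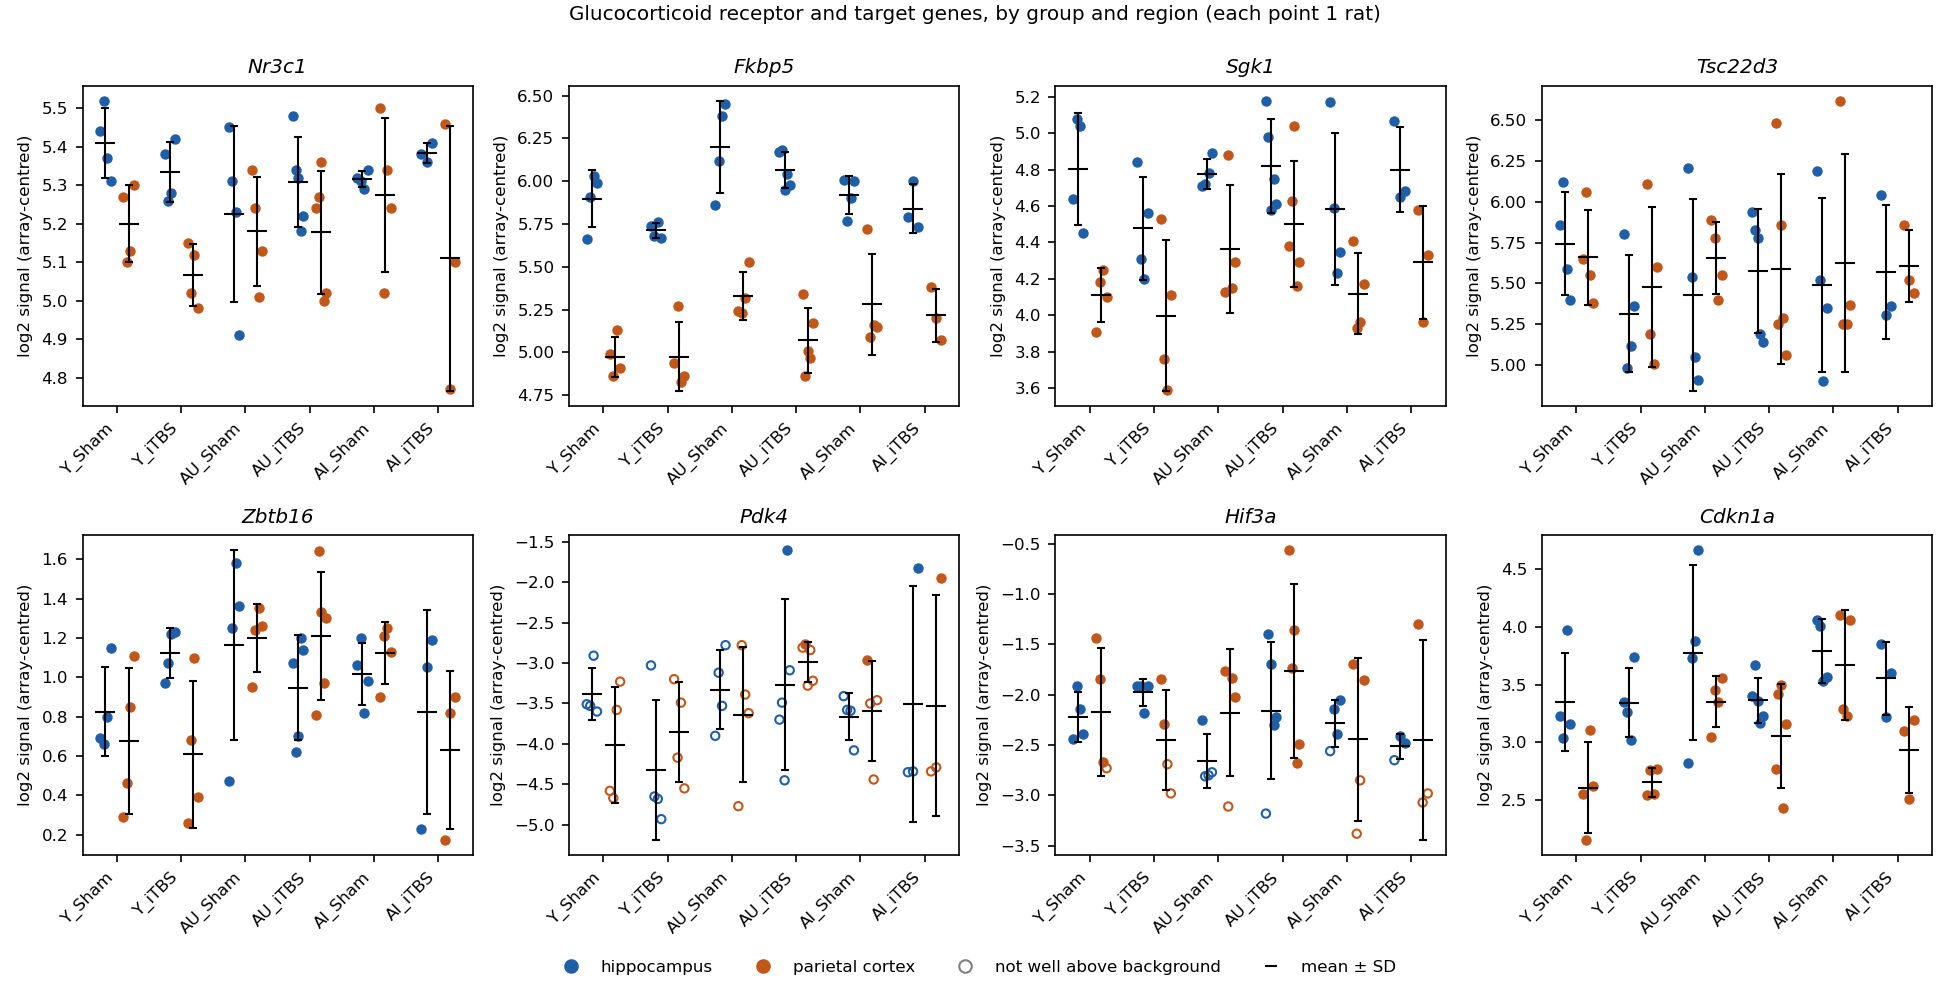
Log2 signal of the 8 genes (y axis, array mean at 0) in the 6 groups (x axis), with hippocampus in blue and parietal cortex in orange, 1 point per rat, bars the mean ± SD and open points not well above background. Fkbp5 in hippocampus (5.66 to 6.45) sits above its cortex values (4.83 to 5.72) in every group, while Pdk4 points are nearly all open.

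The comparison of regions asked whether receptor targets had the same level in hippocampus and cortex of the same rat. Fkbp5, Sgk1 and Cdkn1a were higher in hippocampus, and the other 5 genes were not called. Thus 3 of 8 members were called in either direction in sham rats, where 35.8% of all 33792 probes were called, and 3 of 8 were called higher in hippocampus, where 19.2% of all probes were. The median difference over the 8 genes was 0.19, against 0.026 over all probes.

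Fkbp5 ranged in sham rats from 5.66 to 6.45 in hippocampus (median 5.99) and from 4.86 to 5.72 in cortex (median 5.15). The highest cortex value, from AI_Sham 1, was the only one to reach into the hippocampus range among sham rats. Within rats the hippocampus was higher in 24 of 24, by 0.29 (AI_Sham 1) to 1.32. The mean difference in sham rats was 0.81 (SE 0.0684, 1.75-fold, limma adjusted p = 5.83e-09), and within the 12 sham rats it ran from 0.29 to 1.08.

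Sgk1 ranged in sham rats from 4.23 to 5.17 in hippocampus (median 4.71) and from 3.91 to 4.88 in cortex (median 4.16), so the ranges overlapped although the paired values mostly did not cross. It was higher in hippocampus in 22 of 24 rats, with AU_Sham 2 (-0.16) and AU_iTBS 3 (-0.46) the other way. The mean difference in sham rats was 0.52 (SE 0.0958, 1.44-fold, limma adjusted p = 0.000182).

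Cdkn1a ranged in sham rats from 2.82 to 4.67 in hippocampus (median 3.65) and from 2.15 to 4.10 in cortex (median 3.26), with broad overlap. It was higher in hippocampus in 20 of 24 rats and in 9 of 12 sham rats. All 4 Y_Sham rats differed by 0.54 or more, whereas AU_Sham 1 (-0.23), AI_Sham 1 (-0.04) and AI_Sham 4 (-0.49) went the other way. The mean difference was 0.43 (SE 0.11, 1.35-fold, limma adjusted p = 0.00421). The second Cdkn1a probe was well above background in only 4 hippocampi and 2 cortices, so no difference is read from it.

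The remaining genes had differences of 0.10 (95% interval -0.03 to 0.23) for Nr3c1, -0.09 (-0.28 to 0.10) for Tsc22d3, 0.00 (-0.21 to 0.21) for Zbtb16 and -0.12 (-0.64 to 0.39) for Hif3a, none called. For Zbtb16 the interval leaves out a difference as large as that of Sgk1. Pdk4 was mostly at background and is described below.

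**Figure D2:**
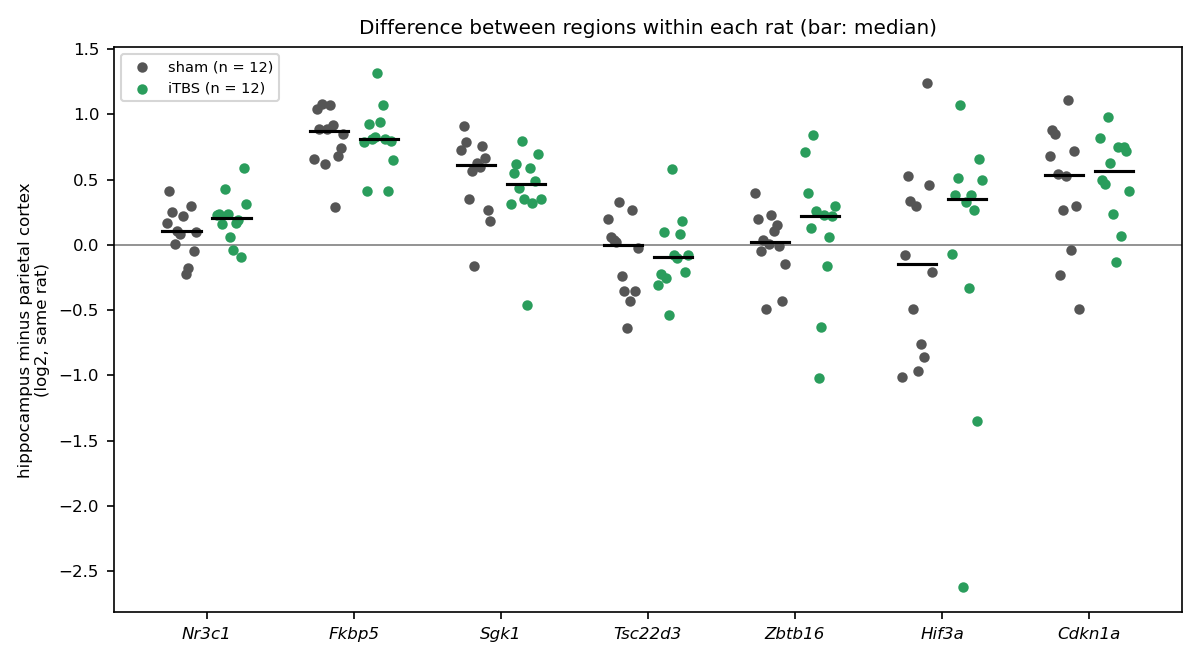
Hippocampus minus parietal cortex within each rat (y axis, log2) for 7 genes (x axis), sham rats in grey and stimulated rats in green, bars at the median. Every Fkbp5 point lies above 0, from 0.29 to 1.32, and Tsc22d3 and Zbtb16 straddle 0. Pdk4 is left out because it was well above background in 2 hippocampi.

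The region contrast could not be separated well from the slide. Of 7 slides, 5 held 1 region and 2 held both, with 7 arrays of 1 region and 1 of the other. With slide as a block 0 of the 3 calls were left, although the differences stayed positive at 0.56 for Fkbp5 (limma adjusted p = 0.41), 0.19 for Sgk1 (0.893) and 0.31 for Cdkn1a (0.871), and the number of probes called fell from 12112 to 270. Within the first scan session all 3 were called (0.90, 0.43 and 0.50), where 31.9% of all probes were. In the later session, with 9 rats, 0 were called, with 0.59 for Fkbp5 (limma adjusted p = 0.0612), 0.72 for Sgk1 (0.105) and 0.17 for Cdkn1a (0.542). Cell type markers also differed, where 35.8% of all probes were called and 19.2% were called higher in hippocampus. Of 10 oligodendrocyte markers 9 were called higher in hippocampus (median 0.62, with all 10 detected in both regions), of 8 microglia markers 3 (median 0.33), of 8 astrocyte markers 4 with 1 lower (median 0.25), and of 8 choroid plexus markers 6 (median 1.59), while 6 of 10 endothelial and mural markers were called lower (median -0.30), and of 8 neuron markers 4 were called lower and 2 higher (median -0.32). In the sham groups the mean log2 signal of the oligodendrocyte list ran from 6.44 to 7.06 over hippocampi and from 5.74 to 6.98 over cortices, that of the microglia list from 4.78 to 5.24 and from 3.81 to 5.07, that of the astrocyte list from 6.42 to 6.77 and from 5.86 to 6.54, that of the neuron list from 6.01 to 6.50 and from 6.27 to 6.73, that of the endothelial and mural list from 2.85 to 3.1 and from 3.04 to 3.60, and that of the choroid plexus list from -0.55 to 2.68 and from -0.31 to 1.82 (over the 6 of its 8 markers tested in cortex). No listed marker was undetected in all rats of either region. Their part in the 3 differences was not tested.

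Genes around the receptor were taken from lists of its partners and other targets. Of all probes, 35.8% were called in this comparison of regions and 19.2% were called higher in hippocampus. The mineralocorticoid receptor gene Nr3c2 was higher in hippocampus by 1.87 (SE 0.0725, 3.66-fold, limma adjusted p = 2.87e-14). Of 11 chaperones and co-chaperones of the receptor complex with a probe, 1 was called, St13 (0.24). Of the 5 coregulators reported here, which pass the receptor's signal to chromatin, 1 was called higher in hippocampus, Nrip1 (0.31).

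Of 14 genes of hormone handling and the stress axis that were tested, 4 were called higher in hippocampus and 4 lower. The lower ones included Crh (-1.90), which encodes corticotropin-releasing hormone, its receptor gene Crhr1 (-2.34), the related peptide gene Ucn (-1.53) and the binding protein gene Crhbp (-0.98). Abcb1b, a transporter gene of the family that carries steroids out of cells, was higher by 2.79. Of 24 other glucocorticoid-induced genes, 8 were called higher in hippocampus, among them the transcription factor genes Cebpb (1.87) and Cebpd (2.05), the small GTPase gene Rasd1 (1.72) and the metallothionein gene Mt2A (0.62), and 4 were called lower, among them the clock gene Per2 (-0.63). The median of that list was 0.15. These counts sit beside 35.8% of all probes called, with 19.2% called higher in hippocampus. With slide as a block, the calls of Nr3c2, Crh, Abcb1b, Cebpb and Cebpd were kept and those of the other listed genes named here were lost, with no change of sign.

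The main question of the series was the response to iTBS at 48 h. None of the 8 genes was called in any iTBS comparison. In hippocampus, 0 of 7 tested members were called in young rats, in aged rats, in AU rats alone, in AI rats alone and in the difference between aged and young effects, where 0% of 32522 probes were called in each. In cortex 0 of 8 were called in the same 5 comparisons, where 0% of 32623 probes were called in each but the AI comparison, with 0.00613% (2 probes). The difference between regions in the iTBS effect likewise gave 0 of 8 members and 0% of probes, in young and in aged rats. At an unadjusted p under 0.05 there were 0 members in hippocampus, 1 in aged cortex, 2 in AI cortex and 1 in the region difference of young rats. In hippocampus 3 of the 4 AU_Sham arrays lay on a slide without AU_iTBS arrays. In cortex 3 AU_Sham arrays shared a slide with 1 AU_iTBS array, and 2 AU_iTBS arrays lay on a slide without AU_Sham arrays. The AU comparison thus went partly with the slide in both regions.

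In young hippocampus, Fkbp5 read 5.66, 5.91, 6.03 and 5.99 in Y_Sham and 5.74, 5.68, 5.76 and 5.67 in Y_iTBS. Of the stimulated rats, 4 of 4 lay below the 3 higher sham rats, and the lowest sham rat lay at the lower end of their range. The difference was -0.18 (95% interval -0.42 to 0.06, limma adjusted p = 0.931). Sgk1 read 4.64, 5.08, 5.04 and 4.45 in Y_Sham and 4.84, 4.31, 4.20 and 4.56 in Y_iTBS, so the groups overlapped, with a difference of -0.33 (-0.74 to 0.08). Tsc22d3 had the widest interval of the young hippocampus, -0.43 (-1.05 to 0.19), and Zbtb16 read 0.30 (-0.15 to 0.75). Markers moved beside these values. In the same hippocampi 7 of 7 cortex markers had a higher mean in Y_iTBS, with a mean log2 signal over the list of 1.88 to 2.20 against 1.44 to 1.89 in Y_Sham, and 8 of 8 choroid plexus markers had a lower one (median -1.01, with -1.03 to 0.29 against 0.05 to 1.60). Of both lists 0 genes were called, by limma, with 1 of each at an unadjusted p under 0.05, and their part in the Fkbp5 and Sgk1 values was not tested.

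In young cortex the differences of the 6 genes detected in all rats ran from -0.18 for Tsc22d3 to 0.05 for Cdkn1a. Fkbp5 was at 4.98 in both groups, with an interval for the difference of -0.31 to 0.31. In aged hippocampus they ran from -0.32 (-0.74 to 0.10) for Cdkn1a to 0.13 (-0.16 to 0.43) for Sgk1. Values of the receptor gene's brightest probe were -0.08 (-0.28 to 0.12) and 0.07 (-0.07 to 0.22) in young and aged hippocampus, and -0.13 (-0.42 to 0.16) and -0.08 (-0.29 to 0.13) in young and aged cortex. A dimmer probe read -0.25 in young and 0.19 in aged cortex, and their difference was 0.44 (unadjusted p = 0.0426, limma adjusted p = 1). The dimmest probe had a higher mean in Y_iTBS than in Y_Sham, at -0.58 against -0.65 in hippocampus and -0.64 against -0.84 in cortex. In aged hippocampus its mean was lower with iTBS, at -0.71 against -0.69 in AU and -1.02 against -0.71 in AI rats. The 3 probes thus disagreed in sign in both regions and at both ages. The arrays per group limit the precision, and changes within those intervals could have gone unseen.

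Cdkn1a in aged cortex was the member closest to a difference. It read 3.05, 3.45, 3.35 and 3.56 in AU_Sham and 2.77, 3.42, 3.50, 2.43 and 3.16 in AU_iTBS, which overlapped. It read 4.10, 3.29, 3.23 and 4.06 in AI_Sham against 3.1, 2.51 and 3.19 in AI_iTBS. The lowest AI_Sham value, 3.23, lay just above the highest AI_iTBS value, 3.19. How many of all probes lay apart in this way in AI rats was not counted. Over the aged rats the difference was -0.52 (SE 0.183, unadjusted p = 0.00992, limma adjusted p = 1), with AI rats at -0.74 (unadjusted p = 0.0137) and AU rats at -0.30 (unadjusted p = 0.231). With slide as a block it was -0.63. A selection rule was also rebuilt from the short account in the study's methods, with a filter on differences among the groups, a comparison of the pair of groups on the z-score scale, a false discovery rate under 0.3, a z-ratio over 1.5 in size and a mean z-score above 0. Details such as the software's own test are not given in the sources used here, so its counts hold for this rebuilt form only. Under it Cdkn1a was the 1 member selected in aged cortex, among 21 of 45248 probes (0.0464%). The same rule selected 0 members in the other 3 comparisons, where it selected 61 probes (0.135%) in young hippocampus, 14 (0.031%) in aged hippocampus and 40 (0.0884%) in young cortex. Averaging in the second, dim probe brought the aged difference to -0.06 and the AI difference to 0.09.

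Zbtb16 in AI cortex read 0.90, 1.21, 1.25 and 1.13 in sham and 0.17, 0.82 and 0.90 in stimulated rats. The lowest value, AI_iTBS 1, lay far below the others, and the highest stimulated value and the lowest sham value were level at 2 decimals. AI_iTBS 1 and the lowest sham rat, AI_Sham 1, were each the only rat of their group in the later scan session. Cortex Zbtb16 was lower in that session (-0.34, limma adjusted p = 0.0288). The difference between stimulated and sham AI rats was -0.49 (SE 0.236, unadjusted p = 0.0497, limma adjusted p = 1). It ran from -0.73 to -0.34 over 14 alternatives, with session as a block and each session alone among them. The part of session was not tested beyond these.

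**Figure D3:**
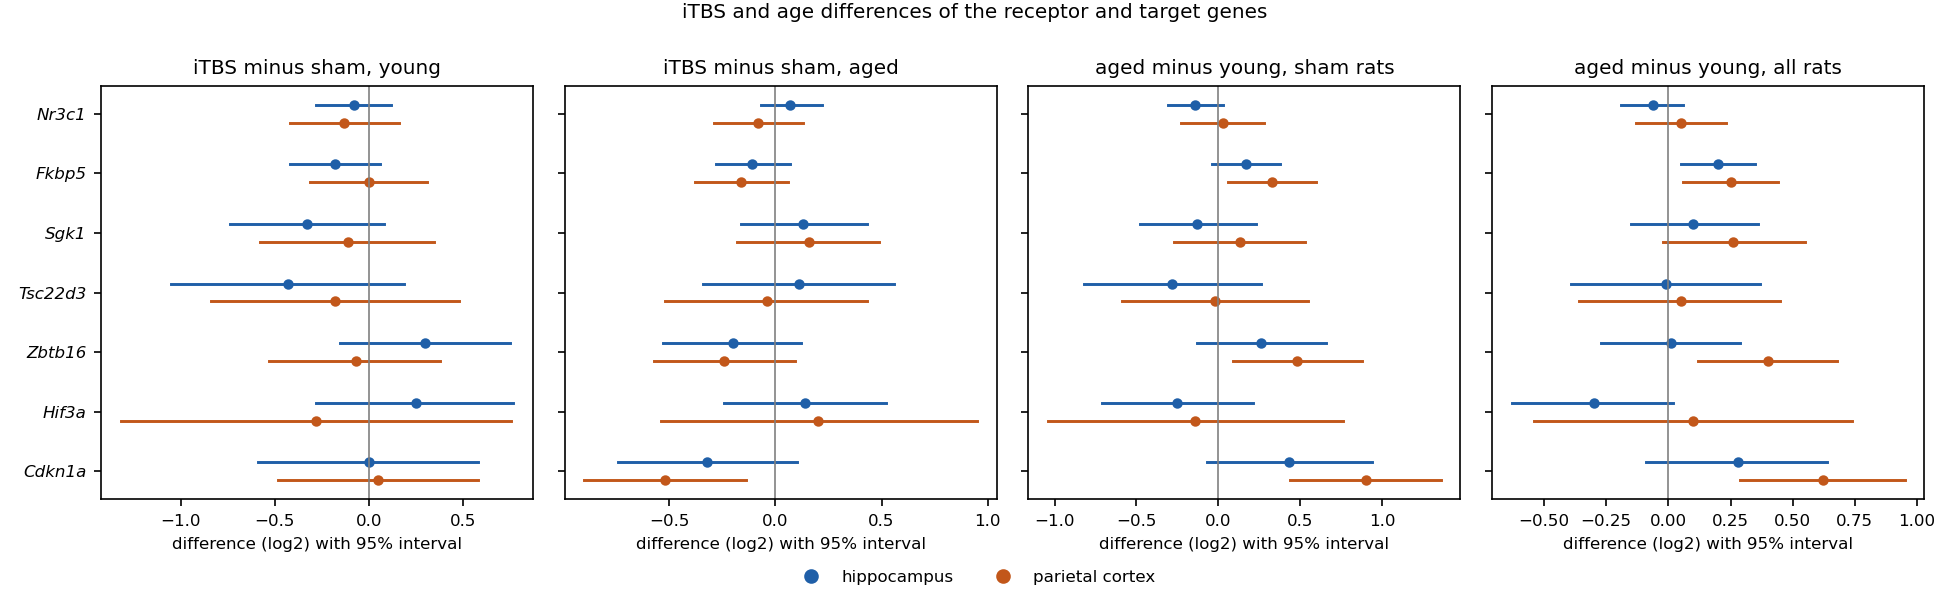
Differences in log2 signal (x axis, point and 95% interval) of 7 genes (y axis) for iTBS minus sham in young and in aged rats and for aged minus young in sham and in all rats, hippocampus in blue and cortex in orange. Most intervals span 0, and Cdkn1a in cortex stands off 0 in the aged iTBS panel (-0.52) and both age panels (0.90 and 0.62). Pdk4 is left out because it was mostly at background.

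Among the listed genes around the receptor, 0 were called in young or aged iTBS comparisons in either region, with at most 2 of a list at an unadjusted p under 0.05. The 24 other glucocorticoid-induced genes had a median of -0.07 in young and -0.01 in aged hippocampus and of -0.13 and -0.06 in cortex. The medians over all probes were -0.02, -0.001, -0.01 and 0.009 in the same order.

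Age was compared by setting aged against young rats, in sham rats alone and in all rats, with AU and AI balanced and, for all rats, stimulation balanced. In cortex, 0 of 8 members were called in sham rats (0.104% of probes were) and 0 of 8 in all rats (0.402% of probes were), with 3 members at an unadjusted p under 0.05 in each, by limma. In all rats 8 of 8 members, the dim Pdk4 included, had a higher mean in aged cortex, with a median difference of 0.26 against -0.012 over all probes. For Nr3c1 this holds for its brightest probe only, and its other probes read -0.20 and -0.03. In hippocampus, 0 of 7 members were called in sham rats (0.00307% of probes were) and 0 of 7 in all rats (0.51% of probes were), with 0 and 1 at an unadjusted p under 0.05. There 4 of 7 were higher in aged rats, with a median of 0.01.

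Cdkn1a had the largest difference between the ages. In cortex Y_Sham rats read 2.55, 2.15, 3.11 and 2.62 and Y_iTBS rats 2.54, 2.76, 2.55 and 2.77, against 3.05 to 3.56 in AU_Sham and 3.23 to 4.10 in AI_Sham. Among sham rats the ages overlapped by 1 young rat, Y_Sham 3. The difference was 0.90 in sham rats (SE 0.22, unadjusted p = 0.000529, limma adjusted p = 0.183) and 0.62 in all rats (SE 0.157, limma adjusted p = 0.0979). Without AU_iTBS 4, whose value of 2.43 was the lowest of the aged rats, it was called at 0.66 (limma adjusted p = 0.034), 1 of 8 members where 0.898% of all probes were called. Of the 24 runs that left out 1 rat, only this 1 called it. Some cortex slides held aged rats only, so age went partly with the slide there. Over 14 alternatives, slide as a block included, the difference ran from 0.38 to 0.92 and was not called. With slide as a block the probes called fell from 131 to 58. In hippocampus the difference in all rats was 0.28 (95% interval -0.09 to 0.64).

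Fkbp5 was higher in aged rats in both regions, by 0.20 in hippocampus (SE 0.0719, unadjusted p = 0.0101, limma adjusted p = 0.254) and by 0.25 in cortex (SE 0.0918, unadjusted p = 0.0131, limma adjusted p = 0.26). Hippocampus values ran from 5.66 to 6.03 in young rats (median 5.75) and from 5.73 to 6.45 in aged rats (median 6.00), with overlap. In the first scan session the hippocampi of the young and AU_Sham rats mostly shared a slide and those of the AI and AU_iTBS rats mostly shared another. With slide as a block the difference rose to 0.35 and was called (limma adjusted p = 0.0316), 1 of 7 members where 6.6% of all probes were called. Zbtb16 was higher in aged cortex by 0.40 (SE 0.135, unadjusted p = 0.00751, limma adjusted p = 0.233), with 0.26 to 1.11 in young and 0.17 to 1.64 in aged rats.

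Nr3c1 differed little with age by its brightest probe (-0.06, 95% interval -0.19 to 0.06, in hippocampus and 0.05, -0.13 to 0.23, in cortex). Another probe of the same transcript had a difference of -0.42 in sham cortex (unadjusted p = 0.00752, limma adjusted p = 0.379), where the brightest read 0.03. The probes of Nr3c1 thus disagreed in sign there.

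The difference between regions in the effect of age gave 0 of 8 members called (0.0237% of probes were). The one at an unadjusted p under 0.05 was Zbtb16, with -0.39 (unadjusted p = 0.0203, limma adjusted p = 0.303). AI and AU sham rats differed in 0 of 7 members in hippocampus and 0 of 8 in cortex, where 0% of probes were called in each. In each region 3 AU_Sham arrays lay on 1 slide and 3 AI_Sham arrays on another, and only the remaining array of each shared a slide. These differences thus cannot be told apart well from the slide. Fkbp5 in hippocampus read 5.86, 6.12, 6.38 and 6.45 in AU_Sham and 6.01, 5.77, 5.90 and 6.00 in AI_Sham, a difference of -0.29 (unadjusted p = 0.0238, limma adjusted p = 1).

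Among the lists, 1 of the 24 other glucocorticoid-induced genes was called with age in hippocampus of all rats, Mt2A (0.49, 1.40-fold, limma adjusted p = 0.0289), a call lost in the normexp alternative and within each session, and 21 of the 24 were higher in aged rats, with a median of 0.08 against -0.01 over all probes. In cortex 0 were called, 19 of 24 were higher and the median was 0.21. Chaperones, coregulators, Nr3c2 and the stress axis had 0 called in either region. The Crh difference in cortex was -0.38 (limma adjusted p = 0.0786). Of 8 microglia markers 1 was called higher in aged hippocampus, Itgam, and 0 of 10 oligodendrocyte or 10 endothelial markers were, and in cortex 0 of those lists were called. Of the choroid plexus markers 8 of 8 had a higher mean in aged hippocampus (median 0.46, 0 called), and of the astrocyte markers 7 of 8 did (median 0.13, 0 called and 3 at an unadjusted p under 0.05). In aged cortex the medians of those lists were 0.24 and -0.06. The part of cell makeup in the age values was not tested.

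Dim members set a limit of their own. Pdk4 was well above background in 2 of 24 hippocampi (AU_iTBS 4 at -1.60 and AI_iTBS 3 at -1.82) and in 3 of 24 cortices (AU_iTBS 2 at -2.77, AI_Sham 1 at -2.96 and AI_iTBS 3 at -1.95). It was not tested in hippocampus, and no fold is given. In young rats it passed an unadjusted p under 0.05 in the difference between regions in the iTBS effect (unadjusted p = 0.0307, limma adjusted p = 1) although 0 of its young values were well above background. Hif3a was well above background in 18 hippocampi and 16 cortices. In hippocampus it was so in 8 of 8 young rats, but in 1 of 4 AU_Sham, 4 of 5 AU_iTBS, 3 of 4 AI_Sham and 2 of 3 AI_iTBS rats. In cortex 5 of 5 AU_iTBS rats and 1 of 3 AI_iTBS rats passed. Its differences were not called.

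Several members varied with the scan session. Compared within groups, rats of the later session had higher Tsc22d3, by 0.73 in hippocampus (SE 0.0917, limma adjusted p = 3.26e-05) and 0.65 in cortex (SE 0.138, limma adjusted p = 0.00145). Zbtb16 was lower, by -0.42 (limma adjusted p = 0.0048) and -0.34 (limma adjusted p = 0.0288). Sgk1 was called higher in hippocampus (0.30), and Nr3c1 (0.22) and Hif3a (1.10) in cortex. In all, 3 of 7 members were called in hippocampus and 4 of 8 in cortex, where 28% and 34.7% of all probes were called. Fkbp5 and Cdkn1a were not called in either region. Session stands for everything that went with the scan, which cannot be told apart here, and each group had rats in both. With session as a block, none of the member calls changed.

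Whether a rat with a high value in one region also had a high value in the other was examined over the 24 rats, as deviations from group means. Tsc22d3 fell into clusters by session, with hippocampus deviations of -0.59 to 0.11 in the first and 0.11 to 0.78 in the later one, so r is given within sessions. It was 0.52 over the 15 rats of the first (Spearman's rho 0.40, permutation p = 0.0478 and 0.146, adjusted over 30897 probes 0.495 and 0.669). It was 0.49 over the 9 rats of the later one (rho 0.40, permutation p = 0.184 and 0.291). Cdkn1a had r = 0.53 over 24 rats (rho 0.61, permutation p = 0.00615 and 0.00193, adjusted 0.0627 and 0.0334). Without the 2 rats farthest from the median its r was 0.55 (rho 0.58, adjusted permutation p = 0.0917 and 0.0895). Its r within the sessions was 0.47 and 0.66 (adjusted permutation p = 0.578 and 0.664). Fkbp5 had r = 0.30 (rho 0.24, permutation p = 0.156 and 0.251, adjusted 0.412 and 0.53), and 0.20 without the 2 farthest rats. By Pearson's r in the pooled rats 1 of 7 members, Tsc22d3, was called, where 8.58% of all probes were.

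**Figure D4:**
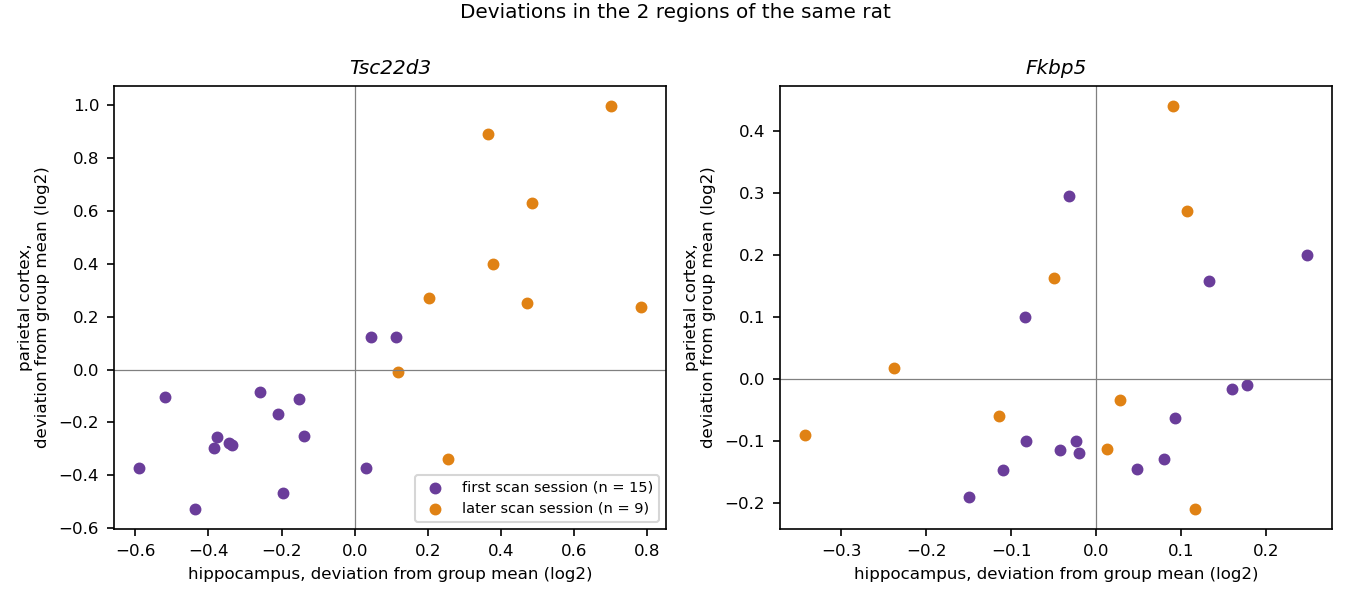
Deviation from the group mean (log2) in hippocampus (x axis) and parietal cortex (y axis) of the same rat for Tsc22d3 and Fkbp5, with the first scan session in purple (n = 15) and the later one in orange (n = 9). Tsc22d3 points of the later session lie to the right, from 0.11 to 0.78, of most first-session points (-0.59 to 0.11), and the Fkbp5 points of both sessions are mixed.

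Members were also set against each other across rats within a region, 49 pairs and regions in all. Of these 11 passed an adjusted p of 0.05 over the 49 by Pearson's r, 4 in hippocampus and 7 in cortex, and 9 of them involved a gene called by session there. With 3 of 7 members called by session in hippocampus and 4 of 8 in cortex, most of the 49 involve such a gene. The count of 9 therefore does not tie the pairs to session. The exceptions among the 11 were Fkbp5 with Cdkn1a in hippocampus (r = 0.51, rho 0.23, adjusted permutation p = 0.0484 and 0.467) and Sgk1 with Cdkn1a in cortex (r = 0.54, rho 0.57, adjusted permutation p = 0.0346 and 0.0246). Within the first session 0 of the 11 passed, and the 1 pair that did, Sgk1 with Cdkn1a in hippocampus (r = 0.85, rho 0.84, adjusted permutation p = 0.00196 and 0.00931 over 15 rats), was not among them (r = 0.47 over 24 rats, rho 0.58, adjusted permutation p = 0.0664 and 0.0246). Within the later session 0 pairs passed, and 0 passed without the 2 rats farthest from the median. The pairs of Fkbp5 with Sgk1, both targets induced through the receptor, had r = 0.28 in hippocampus (rho 0.27, permutation p = 0.187 and 0.197) and 0.06 in cortex (rho 0.04, permutation p = 0.77 and 0.858).

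As a description of likeness, the genes whose deviations over the 24 rats followed Fkbp5 most closely in hippocampus were Tbc1d14 (r = 0.89), Tuba8 (0.87) and Kcng2 (0.86), of 13275 genes compared, with 0.67 at the 99th percentile. In cortex they were Bcl6b (0.79), Plat (0.78) and Slc2a1 (0.77), with 0.55 at that percentile. Sgk1 was followed by Gpd1 (0.84), Imp3 (0.80) and Nfkbia (0.80) in hippocampus and by Atp6ap2 (0.87), Nudt19 (0.87) and Actr10 (0.85) in cortex. Its 99th percentiles were 0.61 and 0.72. Tsc22d3, which moved with the session, was followed by Tle3 (0.95), Washc3 (0.94) and Snrpd2 (0.93) in hippocampus and by Dpy19l4 (0.93), Cdkn2d (0.92) and Pde4b (0.92) in cortex. For Tsc22d3 the 99th percentiles were as high as 0.86 and 0.79. The lists of the 2 regions had no gene in common, and the points share arrays, slides and session.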

How the data were processed

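RNA of 2 regions of 24 rats was hybridised to 56 Agilent 1-color rat arrays, 48 first arrays, 7 technical repeats and 1 array with conflicting labels that was left out. Per the file headers, Agilent Feature Extraction 12.0.3.1 made the deposited spot intensity values, which are background-subtracted. The deposited series table holds a score per feature that the authors made, and it lay within 0.005 of the z-score of log2 intensity over all features of an array, so it was used as an alternative only.

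Here log2 intensity was z-scored per array over non-control probes, so that arrays have equal mean and spread, and multiplied by the mean array SD (4.08). Outlier spots (267 to 1448 per array) were left out, copies of a probe and repeats of a sample were averaged, and a probe well above background in at least 3 of 24 rats was tested. The repeat labelled AI_iTBS 2 cortex correlated better with AI_Sham 2 cortex (r = 0.511 over 500 probes) than with its own first array (-0.011) and was left out. Groups came from the labels. limma 3.58.1 (R 4.3.3) fitted 6 group means per region with 18 residual degrees of freedom, and Benjamini-Hochberg adjustment ran over all probes tested in a region. Region comparisons used the difference within each rat, and correlations used 1e+05 permutations, two-sided (numpy 2.4.6). Symbols were matched through RefSeq accessions for 21109 of 45598 probes (46.3%). All 8 genes, and of each list up to 5 called genes of smallest p, were to be named. The 8 genes and the gene lists were chosen with earlier results of these data known. The list genes Dnajb1, Ncoa1, Ncoa3, Ep300, Med1 and Sesn1 had no named probe, and 1 other list gene is not reported here. The fits were tested on simulated data. Alternatives covered scaling, background correction, filters, repeats, session, slide, replicate number, probe choice and leaving out each rat.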

Additional observations from a re-analysis of the deposited data

Results flagged for a closer look

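A single rat stood apart from its group, by Dixon's test at the 95% level, in 6 of 80 sets of member, region and group, where chance alone gives about 5%. In cortex AI_Sham 1 had the highest Fkbp5 (log2 signal 5.72, nearest 5.16) and the highest Tsc22d3 (6.62, nearest 5.37) of its group, so both sets concerned the same array. In hippocampus Hif3a was lowest in Y_iTBS 3 (-2.18, nearest -1.91) and highest in AU_Sham 1 (-2.25, nearest -2.77). Pdk4 was highest in Y_Sham 3 (-2.91, nearest -3.51) and in Y_iTBS 1 (-3.03, nearest -4.65), and both of these values were not well above background. AI_Sham 1, AU_Sham 1 and Y_iTBS 1 were each the only rat of their group in the later scan session. The part of session in these values was not tested.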

How the results depend on the processing

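The regional calls of Fkbp5, Sgk1 and Cdkn1a were kept in 12 of 14 alternatives and in 24 of 24 runs that left out 1 rat. With slide as a block and within the later session 0 of the 3 were called. For age in hippocampus of all rats, slide as a block gave 1 called member (Fkbp5). For age in cortex of all rats, leaving out 1 rat at a time gave 0 to 1 called members. The rebuilt selection rule of the study gave 1 in aged iTBS cortex. Signs turned for Fkbp5 between AI and AU sham hippocampi within the later session (0.15) and for Cdkn1a in AI iTBS cortex with the mean of its probes (0.09). Members correlated between regions numbered 1, against 0 within the first session, 0 within the later session and 2 with 75th percentile scaling. Correlated pairs of members numbered 11, against 1 other pair within the first session, 0 within the later session and 0 without the 2 farthest rats. Of 152 member differences 90, none of them called, turned sign in at least 1 alternative.

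The number of probes called moved more than the members did. Age in hippocampus of all rats gave 166, with 2145 with slide as a block and 0 within the later session. In cortex it gave 131, with 22 to 180, and in sham rats 34, with 0 to 54. Age in sham hippocampus gave 1, with 0 to 21. Region gave 12112, with 270 to 12557, and region by age 8, with 0 to 12. AI iTBS in cortex gave 2, with 0 to 63, and AU iTBS in cortex 0, with up to 110. Leaving out 1 rat gave 92 to 258 for age in hippocampus and 60 to 293 in cortex. The causes were not tested.

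The labels do not tie replicate numbers to shared litters or days. Deviations of same-numbered rats correlated at -0.09 to 0.393 in hippocampus (3 of 11 pairs over 0.1) and at -0.281 to 0.391 in cortex (6 of 11), so the numbers were not taken as pairs. Every pair over 0.1 shared a scan session, and the part of session in these correlations was not tested. With the replicate block, 0 members were called in every comparison within a region, as without it, and probes called for age in cortex fell to 70 in all rats and rose to 54 in sham rats. Comparing the regions without pairing within rats left 3 members called.

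The number of arrays, from 3 to 5 rats a group, limits the precision. Signal near background limits Pdk4 and, in part, Hif3a.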
